A study of Mus musculus with 15 samples.

Results

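Neuronal cell adhesion and axon guidance genes were examined for BAZ1B occupancy in the nucleus accumbens of cocaine-treated and saline-treated mice. The set holds 9 genes: the cadherin genes Cdh9, Cdh13 and Cdh19, the contactin gene Cntn4, the IgLON gene Lsamp, the L1 family gene Chl1, the netrin receptor gene Unc5d, the receptor phosphatase gene Ptprd and the contactin-associated gene Cntnap5a. They were chosen by name from the authors' table of regions that differ between cocaine and saline, where a region had to lie in the gene body or a promoter class. Each gene held 1 such region, so the 9 regions are part of 130 regions in 110 genes and of 381 regions in all. All 9 are listed as gene body regions. The cocaine and saline values of the same libraries chose these regions, so the differences below are descriptions and carry no test of their own.

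BAZ1B, also called WSTF, is a bromodomain protein that works with ISWI-type chromatin remodelers, which slide and space nucleosomes. Cadherins, IgLON proteins and L1 family proteins sit on the neuronal surface, where they hold cells, axons and synapses to one another. Netrin receptors steer growing axons, and LAR-type receptor phosphatases organise presynaptic sites through partners across the synaptic cleft.

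The study used male C57BL/6J mice aged 7 to 8 weeks. The cocaine group received 20 mg/kg of cocaine hydrochloride intraperitoneally each day, and the saline group received daily saline. Each group has 3 libraries, and every library pooled nucleus accumbens punches of 5 to 10 mice, immunoprecipitated with an antibody to WSTF. The libraries are bulk tissue, so occupancy in fewer cells of a type and less occupancy per cell cannot be told apart. A further 9 samples, from social defeat, were not analysed here.

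The deposited value is a normalized read count for each region and library. Every value is a whole multiple of a constant of its library, the worth of 1 read, so the reads behind it could be recovered. One read was worth 1.93, 0.888 and 1.95 normalized reads for cocaine, in the order the libraries are listed, and 0.86, 0.603 and 0.551 for saline. The inverse of this worth gives a relative depth of 28.5%, 62.1% and 28.2% of the highest library for cocaine, and 64.1%, 91.4% and 100% for saline. This equals sequencing depth only if values were scaled by total reads, and total depth is unknown. On this scale the cocaine library listed as 2 was close to the saline library listed as 1, and the other two cocaine libraries were lowest. The part of this scaling in the differences below was not tested. Since the columns are not numbered by replicate, a library is called by its group and its place in the list. Coordinates are mm9.

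At 7 of the 9 genes the authors list more BAZ1B signal in cocaine (Cdh9, Cdh13, Cdh19, Cntn4, Lsamp, Chl1 and Unc5d), and at 2 they list less (Ptprd and Cntnap5a). Over the whole table, 58.5% of regions are listed as higher and 41.5% as lower. The authors' adjusted p was under 0.05 at 9 of 9 regions, as it was at 95.5% of the 381 regions. The 3 cocaine libraries lay entirely above or below the 3 saline libraries at 9 of 9 regions, as they did at 91.9% of all regions. Both shares follow from how the regions were chosen, and nothing is read from them about these genes. A limma fit was made to all 381 regions on log2(value + 1). It was adjusted over the 14119 tests implied by the authors' adjusted p-values. The limma p-values of tests outside the table were unseen and taken as larger, so the adjusted ones are upper bounds. The spread between libraries was also estimated from selected regions only. At an adjusted p under 0.05 the limma fit called 0 of the 9 and 0% of the table, where its smallest adjusted p was 0.053. At an unadjusted p under 0.05 it listed 9 of the 9, against 91.1% of the table. The authors' table stops at a best-window p-value of 0.0001, where Lsamp (9.6e-05 in the authors' deposited table) and Cntn4 (9.18e-05) lie just inside. Regions just outside were not analysed here.

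Cdh9 encodes a type II cadherin of neurons. Its region (chromosome 15, 16739601 to 16740600, NM_009869) had 17.4, 19.54 and 15.63 normalized reads in cocaine and 7.74, 8.45 and 4.41 in saline. The lowest cocaine library stood 7.18 normalized reads above the highest saline library. The means were 17.52 ± 1.96 and 6.867 ± 2.16 (SD, n = 3), a 2.55-fold difference. Before scaling these were 9, 22 and 8 reads in cocaine and 9, 14 and 8 in saline. The unscaled counts of the groups overlapped, as they did at Cdh13, Cdh19, Cntn4, Lsamp and Unc5d. Relative depth differed between the libraries, so nothing is read from this overlap.

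Cdh13 encodes T-cadherin, which is anchored to the membrane by a lipid and has no cytoplasmic tail. Its region (chromosome 8, 121116601 to 121117600, NM_019707) had 19.34, 19.54 and 25.4 normalized reads in cocaine and 12.04, 6.03 and 7.72 in saline. The saline library listed as 1 was the highest of its group and the cocaine library listed as 3 the highest of all. The means were 21.43 ± 3.44 and 8.597 ± 3.1 (SD, n = 3), a 2.49-fold difference.

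Cdh19 encodes a type II cadherin known from Schwann cell precursors and other glia-related cells. Its region (chromosome 1, 112832401 to 112833500, NM_001081386) had 17.4, 18.65 and 15.63 normalized reads in cocaine and 1.72, 6.64 and 7.72 in saline. The lowest saline value rests on 2 reads. At 3.21-fold, with means of 17.23 ± 1.52 and 5.36 ± 3.2 (SD, n = 3), this was the highest fold among the 7 genes listed as higher. It ran from 2.40 without the saline library listed as 1 to 4.12 without the one listed as 3.

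Cntn4 encodes a contactin, an immunoglobulin-superfamily protein on axons. Its region (chromosome 6, 106603901 to 106604900, NM_001109751) had 27.07, 18.65 and 15.63 normalized reads in cocaine and 11.18, 6.64 and 7.72 in saline. One cocaine library, listed as 1, stood well above the other two. The means were 20.45 ± 5.93 and 8.513 ± 2.37 (SD, n = 3), a 2.40-fold difference that was 2.01-fold without that library.

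Lsamp encodes the limbic system-associated membrane protein, an IgLON protein of limbic neurons. Its region (chromosome 16, 41587601 to 41588600, NM_175548) had 17.4, 20.43 and 15.63 normalized reads in cocaine and 5.16, 6.64 and 9.93 in saline. All 3 cocaine libraries exceeded the highest saline library, by at least 5.7 normalized reads. The means were 17.82 ± 2.43 and 7.243 ± 2.44 (SD, n = 3), a 2.46-fold difference.

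Unc5d encodes a receptor for netrins that mediates axon repulsion. Its region (chromosome 8, 29829601 to 29830600, NM_153135) had 19.34, 16.87 and 19.54 normalized reads in cocaine and 6.02, 7.24 and 7.72 in saline. Libraries within each group lay closest together here among the 7 genes listed as higher, with an SD of 8.0% of the mean in cocaine and 12.5% in saline. The means were 18.58 ± 1.49 and 6.993 ± 0.876 (SD, n = 3), a 2.66-fold difference. Leaving out any 1 library moved the fold only between 2.48 and 2.80.

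Chl1 encodes the close homolog of L1, a cell adhesion molecule of axon growth and neuronal migration. Its region (chromosome 6, 103598201 to 103600200, NM_007697) differs from the other 8 in scale. It had 607.19, 310.83 and 623.31 normalized reads in cocaine and 308.82, 224.4 and 199.08 in saline. The cocaine library listed as 2 exceeded the highest saline library by only 2.01 normalized reads. The means were 513.8 ± 176 and 244.1 ± 57.5 (SD, n = 3), a 2.10-fold difference that became 2.52-fold without that library and 1.88-fold without the cocaine library listed as 3.

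Before scaling, the Chl1 region held 314, 350 and 319 reads for cocaine and 359, 372 and 361 for saline. Every cocaine library thus had fewer reads than every saline library, the opposite order to the normalized values. The SD over the 6 libraries was 6.89% of the mean for reads and 49.7% for normalized values. The 2 libraries with the most normalized signal were those in which 1 read was worth most, 1.93 and 1.95 normalized reads.

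Chl1 shared this feature with the other autosomal regions listed as higher whose larger group mean was 60 or more, leaving out a block at the start of chromosome 11 that holds Sfi1. In 13 of these 13 regions the cocaine libraries together held fewer reads than the saline libraries. Relative depth was 28.5%, 62.1% and 28.2% for cocaine and 64.1%, 91.4% and 100% for saline. Fewer cocaine reads arise wherever the pooled fold is smaller than this depth difference, at Chl1 as well, so nothing is read from that count. In 11 of the 13 the reads varied less over the 6 libraries than the normalized values did. Relative to the saline mean, the cocaine libraries stood at 2.49, 1.27 and 2.55 at Chl1 and at medians of 2.2, 1.11 and 2.27 at the other 13. The cocaine library listed as 2 was at or under the highest saline library at 11 of the 13, and above it at Chl1. The part of the scaling in the Chl1 difference was not tested.

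**Figure D1:**
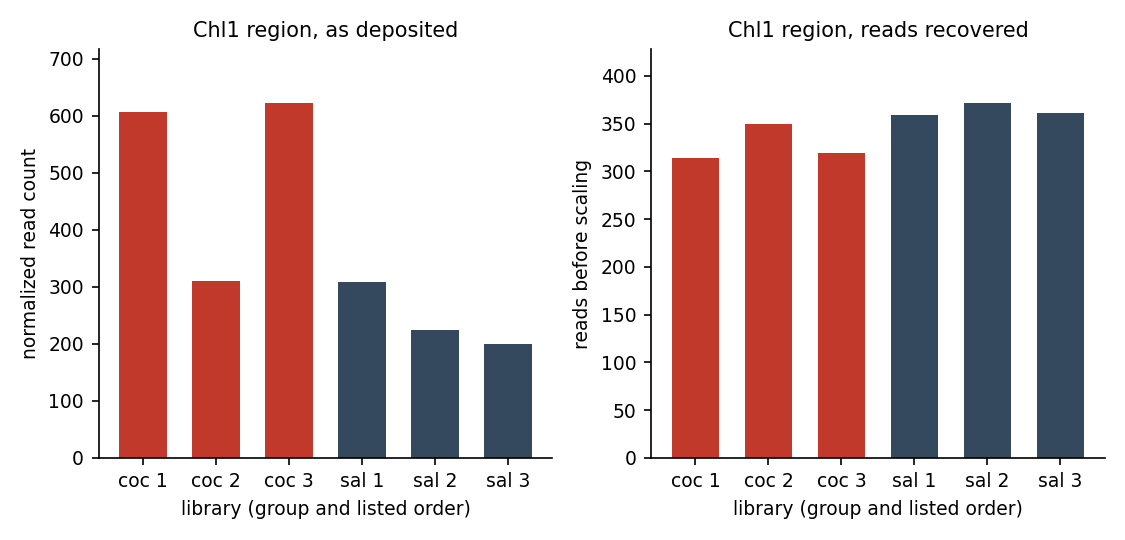
The Chl1 region in the 3 cocaine (red) and 3 saline (blue) libraries, with normalized read count as deposited on the left axis and reads before scaling on the right axis. Normalized values are highest in the cocaine libraries listed as 1 and 3 (607.19 and 623.31), whereas reads lie between 314 and 372 in all 6 libraries and are lowest in cocaine.

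Ptprd encodes a LAR-type receptor phosphatase of presynaptic sites. Its region (chromosome 4, 76432901 to 76433900, NM_011211) had 0, 7.1 and 3.91 normalized reads in cocaine and 13.76, 16.29 and 17.65 in saline. The cocaine libraries ranged from no read to 8 reads, whereas the saline libraries held 16, 27 and 32. The means were 3.67 ± 3.56 and 15.9 ± 1.97 (SD, n = 3), a 4.33-fold lower value in cocaine. Leaving out the first cocaine library gave 2.89. Leaving out the second gave 8.13, where the cocaine side rested on 2 reads. A 95% counting interval of the pooled reads then ran from 2.23 to 70.02.

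Cntnap5a encodes a contactin-associated protein of the neurexin superfamily. Its region (chromosome 1, 118077101 to 118078100, NM_001077425) had 5.8, 4.44 and 3.91 normalized reads in cocaine and 17.2, 15.08 and 15.99 in saline. The SD was 6.61% of the mean in saline and 20.7% in cocaine, where the libraries held only 3, 5 and 2 reads. The gap between the groups was 9.28 normalized reads. The means were 4.717 ± 0.975 and 16.09 ± 1.06 (SD, n = 3), a 3.41-fold lower value in cocaine that stayed between 3.14 and 3.85 when any 1 library was left out. Its 10 cocaine reads stood against 74 saline reads before scaling. Divided by relative depth, these pooled reads were 3.44-fold lower in cocaine.

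**Figure D2:**
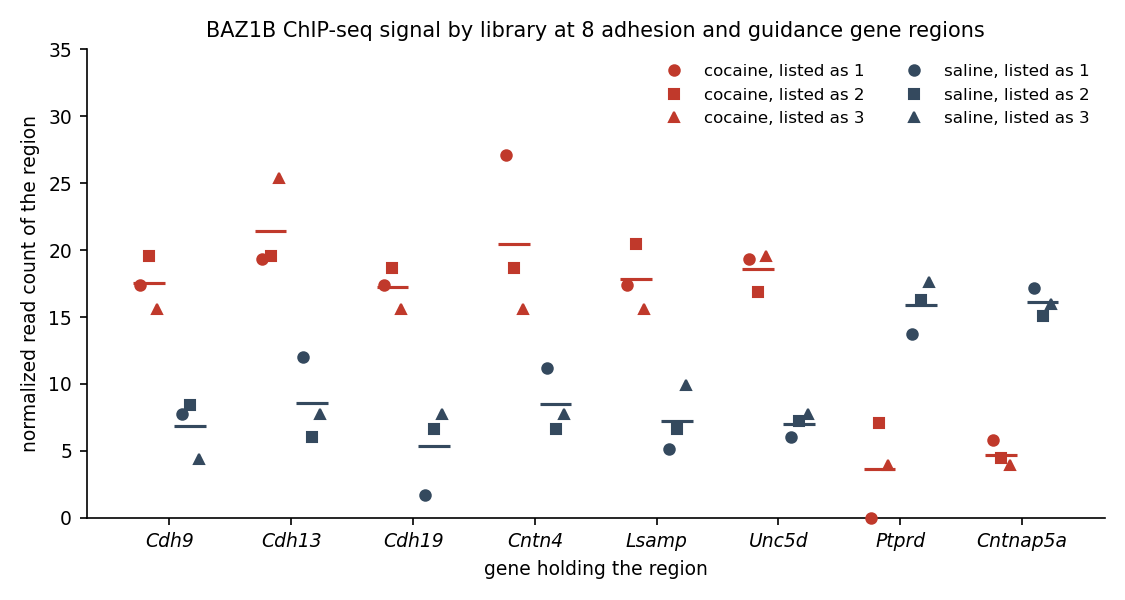
Normalized read count (vertical axis) of the region in each of 8 genes (horizontal axis), with 1 point per library in cocaine (red) and saline (blue) and a bar at each group mean; Chl1 is left out for its scale. At the 6 genes listed as higher the cocaine points lie between 15.6 and 27.1 and the saline points between 1.72 and 12.04, and at Ptprd and Cntnap5a the saline points lie above the cocaine points.

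The 6 regions listed as higher other than Chl1 were much alike in level, and so were such regions over the whole table. All 174 regions listed as higher with both group means under 60 had cocaine means of 16.3 to 30.2 normalized reads. Their saline means were 3.6 to 13.5, so the level is not particular to these genes. Per kilobase the 6 regions had 15.7 to 21.4 normalized reads in cocaine and 4.87 to 8.6 in saline. Ptprd and Cntnap5a had 3.67 and 4.72 per kilobase in cocaine and 15.9 and 16.1 in saline. Chl1 had 257 and 122 per kilobase.

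Their values are small whole numbers of reads. In the cocaine library listed as 3, the value 15.63 stands for 8 reads and recurs at Cdh9, Cdh19, Cntn4 and Lsamp. In the cocaine library listed as 1, the value 17.4 stands for 9 reads and recurs at Cdh9, Cdh19 and Lsamp. In the saline library listed as 3, the value 7.72 stands for 14 reads and recurs at Cdh13, Cdh19, Cntn4 and Unc5d. The 6 regions together held 61, 128 and 55 reads in cocaine and 51, 69 and 82 in saline. The cocaine library listed as 2 held the most reads of the 6 libraries, and the other two cocaine libraries held fewer than the saline libraries listed as 2 and 3. In normalized reads the 3 cocaine libraries were close, with means over the 6 regions of 19.7, 18.9 and 17.9, against 7.31, 6.94 and 7.54 in saline.

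Reads pooled within groups and divided by pooled relative depth gave intervals for counting error alone. These 95% exact binomial intervals take reads as independent molecules, which PCR copies are not, and leave out variation between libraries and the selection of the regions. They ran from 1.64 to 4.48 for Cdh9, from 1.62 to 4.03 for Cdh13, from 1.8 to 5.15 for Cdh19 and from 1.54 to 3.87 for Cntn4. For Lsamp the interval was 1.52 to 3.98 and for Unc5d 1.56 to 4.17, so the folds of these 6 genes overlapped widely and their order is not resolved. Chl1, with 983 cocaine and 1092 saline reads, had a narrower interval of 1.77 to 2.11. Without the cocaine library listed as 2 the Chl1 interval was 2.36 to 2.88. It was 1.57 to 1.91 without the one listed as 1 and 1.55 to 1.89 without the one listed as 3. The libraries thus differed by more than the Chl1 counting interval covers. The lower signal at Ptprd and Cntnap5a spanned 1.8 to 7.57 and 1.77 to 7.47.

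The folds moved with the scaling. The libraries were rescaled by the median of ratios over those of the 381 regions with a value above 0 in every library. Ptprd, with 0 in 1 cocaine library, was not among them. The median log2 fold change of the table then moved by -0.65, and 49.1% of regions were higher in cocaine in place of 58.5%. The 7 genes listed as higher stayed higher, at 1.33-fold for Chl1, 2.04-fold for Cdh19 and 1.52-fold to 1.69-fold for the other 5, all values after that shift. Cocaine and saline libraries then overlapped at Cdh13, Cntn4, Lsamp and Chl1. The groups were apart at 5 of 9 regions, against 79.0% of the table. Ptprd and Cntnap5a became 6.43-fold and 5.39-fold lower. This rescaling takes regions the authors had selected as its base, without those that hold a 0. It centres each library on those regions. The more even split of directions and the common shift at all 9 genes are therefore built in.

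**Figure D3:**
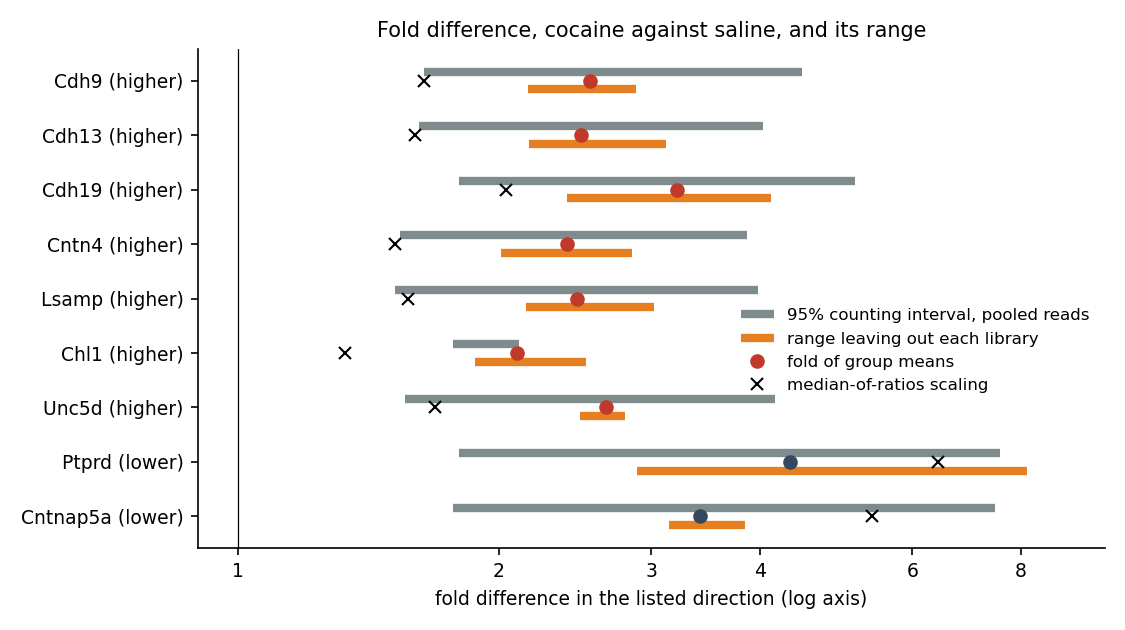
Fold difference between cocaine and saline in the listed direction (horizontal log axis) for each of the 9 genes, with the fold of the group means (points, red for higher and blue for lower in cocaine), the range over leaving out each library (orange), the 95% counting interval of pooled reads (grey) and the fold after median-of-ratios scaling (crosses). Crosses lie below the points at the 7 genes listed as higher and above them at Ptprd and Cntnap5a, and Ptprd has the widest orange range, from 2.89 to 8.13.

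The 7 genes listed as higher had a median fold of 2.49, against 2.59 over all 223 regions listed as higher. Among regions with both group means under 60, the median was 2.52 for the 6 genes and 2.67 for 61 regions of other genes. The 3.41-fold and 4.33-fold differences of Cntnap5a and Ptprd lay on either side of the median of 3.96 over 38 comparable regions of other genes, which ran from 2.11 to 6.19. In size of difference these genes lay within the range of the other gene regions of the table. By the authors' adjusted p, Chl1 ranked 110th and Lsamp 344th of the 381 regions.

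All 9 regions lay 32.2 kb or more from the annotated start of their gene. The 93 gene body regions of other genes, Sfi1 aside, had a median distance of 64.9 kb and a range of 3.72 to 784 kb. Cdh9, Cdh19 and Lsamp lay closer than that median. The deposited start and end are the lower and upper coordinate on both strands, so for the minus-strand genes Cdh19, Unc5d and Ptprd the distance was counted from the upper one, as the authors' own distance column does. The region centres lay 32.2 kb from the start in Cdh9, 41.0 kb in Cdh19, 54.6 kb in Lsamp and 138 kb in Chl1. The remaining 5 lay 309 kb (Cdh13), 496 kb (Cntnap5a), 500 kb (Unc5d), 536 kb (Cntn4) and 1420 kb (Ptprd) away. No region of the table was listed in a promoter class of any of these genes. Exons and introns were not assigned, since no mm9 gene models beyond the deposited ends were used here.

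Relative to gene length the regions were scattered. Lsamp had its region after 8.92% of the gene, Cdh13 after 29.8%, Cdh9 after 41.0% and Cdh19 after 46.5%. Cntnap5a followed at 55.4%, Chl1 at 62.3%, Ptprd at 62.7%, Unc5d at 87.3% and Cntn4 at 96.4%, close to its end. The 2 genes listed as lower thus lay between genes listed as higher. The median share passed was 55.4% in the 9 genes and 56.0% at 93 gene body regions of other genes, leaving out Sfi1, which holds a block of many regions.

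The genes themselves were long. Their deposited models spanned 78.7 kb (Cdh9) to 2270 kb (Ptprd), with a median of 573 kb, against a median of 184 kb over 91 other genes with a gene body region, Sfi1 aside. Models of 500 kb or more were held by 6 of the 9 genes and 11 of the 91. The gene models were chosen by the annotation and the genes by name, so this contrast is a description. Distances and shares of the gene passed depend on the start that is used.

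**Figure D4:**
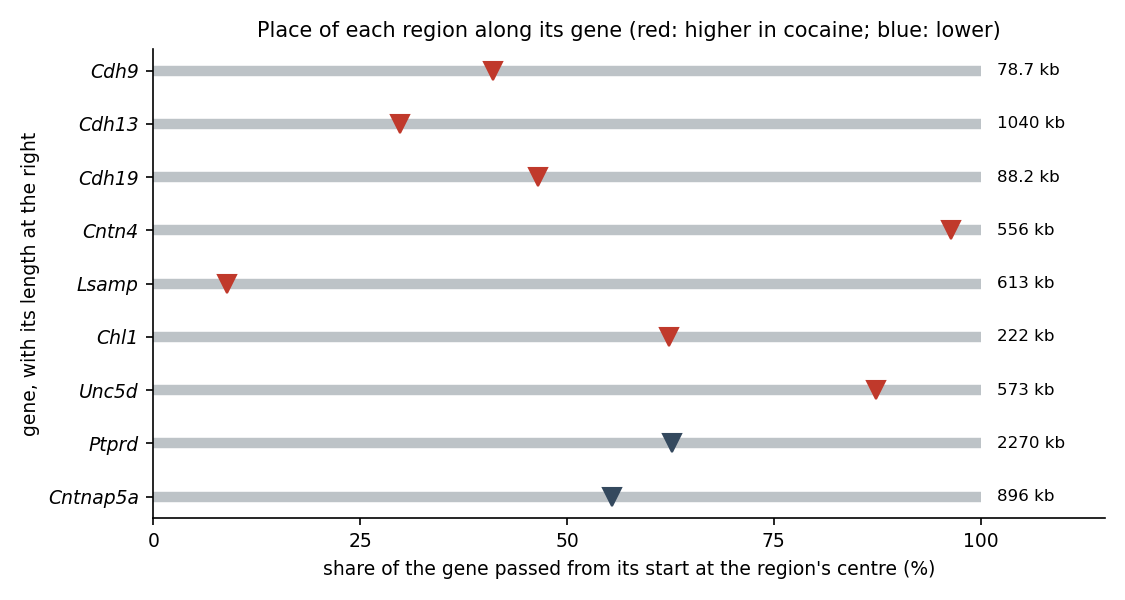
Each grey bar is 1 gene from its start (0%) to its end (100%), with its length in kb at the right, and the triangle marks the centre of the region (red, higher in cocaine; blue, lower). The triangles run from 8.92% in Lsamp to 96.4% in Cntn4, and those of Ptprd and Cntnap5a lie near the middle.

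Start windows from RefSeq (GRCm38.p6), each running from 250 bases before to 50 bases after a start, were matched by symbol for 4 of the 9 genes: Cdh9, Cntn4, Lsamp and Chl1. They are shown for Lsamp, whose distance depends on which of its starts is used, and for Chl1, the gene with most signal. Capitals mark the dinucleotide CG, which reads the same on both strands. With no listed region in a promoter class of these genes, the windows describe the genes and not the BAZ1B signal.
Lsamp upstream start, chr16:39984114-39984413, plus strand: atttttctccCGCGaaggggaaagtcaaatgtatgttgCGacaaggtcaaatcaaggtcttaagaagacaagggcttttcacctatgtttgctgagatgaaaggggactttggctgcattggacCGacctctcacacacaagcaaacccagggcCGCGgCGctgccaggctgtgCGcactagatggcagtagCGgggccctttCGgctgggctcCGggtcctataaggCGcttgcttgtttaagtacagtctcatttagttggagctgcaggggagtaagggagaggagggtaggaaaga
Lsamp downstream start, chr16:41532576-41532875, plus strand: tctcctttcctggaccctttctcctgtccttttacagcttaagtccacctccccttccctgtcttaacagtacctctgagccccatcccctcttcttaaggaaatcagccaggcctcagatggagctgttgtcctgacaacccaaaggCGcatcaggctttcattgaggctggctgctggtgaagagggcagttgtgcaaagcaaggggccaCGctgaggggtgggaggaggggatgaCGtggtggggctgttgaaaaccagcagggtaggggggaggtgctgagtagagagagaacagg
Chl1 start, chr6:103510626-103510925, plus strand: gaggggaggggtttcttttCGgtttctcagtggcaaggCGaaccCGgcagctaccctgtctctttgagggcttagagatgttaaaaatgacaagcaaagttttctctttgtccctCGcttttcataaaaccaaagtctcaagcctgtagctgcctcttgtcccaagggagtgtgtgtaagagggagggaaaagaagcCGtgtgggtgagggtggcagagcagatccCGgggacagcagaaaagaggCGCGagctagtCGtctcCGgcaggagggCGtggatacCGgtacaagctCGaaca
The upstream Lsamp window holds 12 CG dinucleotides and the downstream one 3, counts that 39.6% and 76.7% of all 32851 windows reach or exceed. Chl1 holds 13, a count reached by 37.9% of windows. The Lsamp starts lie 1548 kb apart in that build, farther than the 613 kb that the deposited Lsamp model spans. The share of 8.92% passed at the Lsamp region therefore holds only for the deposited model, and would be larger from the upstream start. Sequences of the mm9 regions themselves were not used here.

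The wider families were read from fixed lists. Of 177 genes in 12 lists of adhesion and guidance families, 8 had a region listed as higher and 2 one listed as lower. The 9 genes make up all but 1 of these, and they were picked because they are in the table, so the counts describe coverage only. That is 5.65% of the list genes, beside 0.457% of 21896 protein-coding genes in the RefSeq gene table, of which 100 hold a region. The share of 5.65% was set by that choice of genes. Long genes also offer more room for a region, gene length was not matched, and nothing is read from these shares. Cadherins held 3 of 23 genes, all listed as higher, contactins 1 of 6, IgLON proteins 1 of 5, the L1 family 1 of 4, and netrins with their receptors 1 of 14. LAR-type phosphatases held 1 of 3 and contactin-associated proteins 1 of 7, both listed as lower. The list of synaptic adhesion partners held 1 of 43, listed as higher. The 4 lists of slits and robos, semaphorins with plexins and neuropilins, ephrins with Eph receptors, and non-clustered protocadherins held none.

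The remaining gene was Kirrel, in the list of synaptic adhesion partners, which encodes an immunoglobulin-superfamily adhesion protein. Its gene body region (chromosome 3, 86923501 to 86924800) had 32.87, 19.54 and 25.4 normalized reads in cocaine and 6.88, 11.46 and 11.03 in saline. The groups did not overlap, and the means were 25.94 ± 6.68 and 9.79 ± 2.53 (SD, n = 3), a 2.65-fold difference. None of the 34 marker genes of medium spiny neurons, astrocytes, oligodendrocytes, or microglia and endothelium had a listed region. The table holds only differing regions, so it cannot check the tissue label.

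Over the 6 libraries, the mean pattern of the 7 genes listed as higher was most like those of Gm6040 (Pearson's r = 0.986), Tns3, a tensin gene (0.986), and D130009I18Rik (0.985), among 121 regions of other genes. The pattern of Ptprd and Cntnap5a was most like those of Efcab2 (r = 0.993), Csgalnact1, an enzyme gene of chondroitin sulfate synthesis (0.988), and D930032P07Rik (0.985). These regions share libraries, depth and the same selection, so high values of r are built in.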

How the data were processed

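BAZ1B ChIP-seq of 3 cocaine and 3 saline libraries was read from 1 deposited table of differing regions, whose name gives diffReps and nb. The build mm9 and CASAVA 1.8 come from the submitters' processing notes; for aligner, filters and thresholds the entry is: not given in the sources used here. Its header has 26 names for 30 cells, as each count name covers 3 libraries. The signal is a normalized read count deposited per library. The authors' log2 fold change is the log2 ratio of group means (largest deviation 0.0055). The authors' p-values and adjusted p-values were copied as deposited; the adjusted ones fit Benjamini-Hochberg over 14119 tests at 381 of 381 regions.

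Folds here are ratios of group means. With the worth of 1 read found per library, 100% of values in each were whole within 0.1 read. A search starting from the smallest value found it in 3 of the 6 libraries, so no count test was run. limma 3.58.1 (R 4.3.3) was fitted to log2(value + 1) of all regions with a mean-dependent prior, after a test on simulated data. Those data held no selection of regions and were adjusted over the simulated regions alone. No filter on low values was used. The labels call the triplicates independent, and each is a pool of mice.

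The genes and lists were chosen with earlier results of these data known. Named genes are the 9 genes, list genes with a region, and the 3 most similar regions per direction. All 211 list symbols matched the GRCm38.p6 gene table, used for names. Alternatives were leaving out each library, median-of-ratios scaling, pseudocounts, pooled reads, a minimum mean of 10, a limit of 60 on the mean, and other adjustments.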

Additional observations from a re-analysis of the deposited data

How the results depend on the processing

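No paired analysis was possible because no column says which replicate it holds. A count test on the recovered reads was not run. Directions held for the 7 genes listed as higher and the 2 listed as lower in each of the 10 alternatives run. Where groups do not overlap, leaving out a library cannot turn a direction, so this says nothing about stability. Leaving out each library gave a median fold of 2.36 to 2.61 for the higher genes and 3.34 to 5.19 for the lower ones. Median-of-ratios scaling gave a median fold of 1.6 for the higher genes, 5 genes with groups apart and 1 gene (Cntnap5a) called by limma, against 36.2% of the table. Adjusting over the 381 regions alone let limma call 9 genes, against 90.8% of the table, because fewer tests were counted. With 0.5 as pseudocount and without each library, limma called 0 of the 9 and 0 of the 381 regions in each fit. A minimum mean of 10 removed none of the 381 regions. Of 90 single-gene log2 fold changes under alternatives, 83 moved by less than the spread between libraries, 7 by more and 0 reversed. The 7 all came from the rescaling. Ptprd and Cntnap5a rest on 10 cocaine reads each, so their counting intervals are wide.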
